A study of Heterocephalus glaber and Mus musculus with 9 samples.

Results

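The Slc25 family is the largest group of transporters in the inner membrane of the mitochondrion. Its proteins exchange metabolites, nucleotides, cofactors and iron between the mitochondrial matrix and the rest of the cell, and 1 member, Slc25a17, sits in the peroxisome instead. In blood-forming tissue the best known members are the mitoferrins, which bring in the iron that ferrochelatase inserts into haem, and Slc25a39, which carries glutathione. The family was taken as every row of the expression table whose symbol, ignoring case, starts with Slc25a and a digit, which gave 35 of 12946 genes.

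RNA was sequenced from 9 spleens of healthy animals, 1 library per animal. The 3 mice were wild-type C57Bl/6N males of 2 months kept at 22 °C. The 6 naked mole-rats (NM-Rs) were kept at 29 °C and had been divided by spleen size relative to body mass into a small-spleen cohort (ssNM-R) and a large-spleen cohort (lsNM-R) of 3 each. The ssNM-Rs 2, 3 and 6 were males of 30, 26 and 23 months, and the lsNM-Rs were males 1 and 5 of 24 and 23 months and female 4 of 29 months. Species, age and housing temperature therefore cannot be told apart, and no spleen was treated in any way. The annotations and genomes also differ between the species, and NM-R genes entered the table under the name of a mouse homologue, so a difference between species holds any difference between the gene models as well. Values are read counts divided by 1 size factor per library (normalized counts) and are not divided by gene length.

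The 35 rows were not the whole family. The mouse annotation (GENCODE M1, mm9) has 44 protein-coding genes with Slc25a symbols, and 34 of them were in the table, with Slc25a53 as the row that this annotation does not name. The phosphate carrier Slc25a3 and the glycine carrier Slc25a38, which serves the first step of haem synthesis, were not analysed here. All 35 rows have a symbol in the RefSeq annotation of the NM-R. Every row was kept, without a filter on low values. A member was taken to be at the floor in a species when no library of it held more than 3 reads, and this was the case for Slc25a31 in the NM-Rs alone.

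The libraries held between 7815326 and 18387599 reads in the table, and the NM-R libraries fell into a shallower set with lsNM-R 1 and the ssNM-Rs 2 and 3, and a deeper set with ssNM-R 6 and the lsNM-Rs 4 and 5. The erythroid markers (10 of 11 listed) were all higher in the NM-Rs, and their summed level was 14373 in mouse 1, against 43147 and 55010 in the other mice, and between 140530 and 211806 in the NM-Rs. The B cell markers were lower for 6 of 6, the T cell markers for 5 of 5, and the neutrophil markers (4 of 7 listed) were higher for 4 of 4. No marker of these 4 lists was at the floor in either species. Of other cell types, 1 of 6 macrophage markers was higher and 4 lower, 2 of 5 smooth muscle markers were higher and 1 lower, 4 of 5 adipose markers were higher, and 2 of 3 pancreas markers were higher and 1 lower. Here 2 adipose and 2 pancreas markers were at the floor in every mouse. By the limma test used for all these counts, 39.7% of all genes were higher in the NM-Rs and 38.8% lower. The pancreas marker sum was between 364 and 497 in mice and between 134 and 230 in NM-Rs. In bulk tissue, fewer cells of a type and less RNA per cell cannot be told apart, and this applies to every difference below.

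Slc25a37 (mitoferrin-1, mm9 chr14:69859908-69903160, minus strand) was the member with the most reads in each of the 9 spleens, although in mouse 1 the adenine nucleotide carrier Slc25a5 was close to it. Its normalized counts were 4559, 10635 and 13006 in the mice, 25332, 19783 and 16786 in the ssNM-Rs, and 18868, 22940.4 and 16341 in the lsNM-Rs. Every NM-R spleen lay above every mouse spleen, and mouse 1 was far below the other mice. The level was 2.13 times as high in NM-Rs as in mice (log2 fold change 1.20 ± 0.30 SE, limma adjusted p = 0.00421, over all 12946 genes), and without mouse 1 the log2 fold change was 0.75 (limma adjusted p = 0.0085).

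Slc25a28 (mitoferrin-2, chr19:43738312-43749371, minus strand) carries the same cargo and went in the opposite direction. Its normalized counts were 675, 593 and 659.6 in the mice, 539, 560.0 and 536 in the ssNM-Rs, and 541, 507 and 471 in the lsNM-Rs. The species did not overlap, and the mean was 643 ± 43.4 (SD, n = 3) in mice and 526 ± 31.7 (SD, n = 6) in NM-Rs. The difference was small and passed the test (log2 fold change -0.29 ± 0.09 SE, limma adjusted p = 0.0103), but it missed it when spleens were rescaled to the same upper quartile (-0.20, limma adjusted p = 0.0582) or quantile normalized (-0.19, limma adjusted p = 0.0673).

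The ratio of Slc25a37 to Slc25a28 within a spleen does not depend on the size factor. On a log2 scale it was 2.75, 4.16 and 4.30 in the mice, 5.55, 5.14 and 4.97 in the ssNM-Rs, and 5.12, 5.50 and 5.11 in the lsNM-Rs. The NM-R mean was 1.49 above the mouse mean, with no overlap between species (exact permutation test, 2-sided, p = 0.0238, adjusted over 6 pairs p = 0.0286). The smallest p that 3 against 6 spleens allow is the same 0.0238. Leaving out mouse 1 brought the difference to 1.00.

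Slc25a37 followed the erythroid markers from spleen to spleen. Within the NM-Rs the counts of Slc25a37 spanned a 1.55-fold range and the erythroid marker sum a 1.51-fold range, with ssNM-R 2 highest in both and the same spleens, ssNM-R 6 and lsNM-R 5, lowest in both. Within the mice the ranges were 2.85-fold and 3.83-fold, with mouse 1 lowest in both. The quotient of Slc25a37 over the marker sum was 0.317, 0.246 and 0.236 in the mice, 0.120, 0.120 and 0.119 in the ssNM-Rs, and 0.113, 0.114 and 0.113 in the lsNM-Rs. Set against this sum, Slc25a37 was thus lower in every NM-R spleen than in any mouse, although its own count was higher. The markers in the sum were unequal, from 2.07 times as high in NM-Rs for Klf1 and 2.29 for Slc4a1 to 11.7 for Epor. Slc25a37 itself was 2.13 times as high, so the low quotient depends on which markers are summed. The quotient varied by 3.06% (coefficient of variation) over the 6 NM-Rs, while Slc25a37 alone varied by 17.6%. The part of the erythroid markers in the difference between species was not tested.

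**Figure D1:**
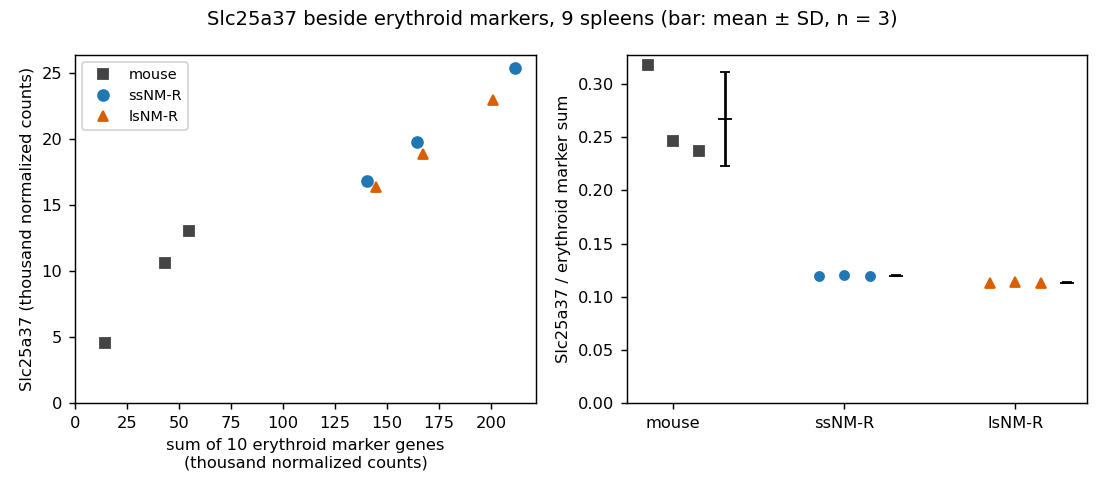
Slc25a37 beside erythroid markers in 9 spleens, with mouse as squares, ssNM-R as circles and lsNM-R as triangles. On the left, the normalized count of Slc25a37 is plotted against the sum of 10 erythroid marker genes, both divided by 1000. On the right, the quotient of both is shown per spleen with the mean ± SD of each group (n = 3). The quotient lay between 0.236 and 0.317 in mice and between 0.113 and 0.120 in NM-Rs.

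The glutathione carriers Slc25a39 (chr11:102264299-102269260, minus strand) and Slc25a40 (chr5:8422850-8454790, plus strand) also parted. Slc25a39 had 1812, 2381 and 2872 normalized counts in the mice, 3677, 3082 and 3339 in the ssNM-Rs, and 3008, 3342 and 3019 in the lsNM-Rs. Every NM-R spleen was above every mouse spleen, by 0.48 ± 0.14 (SE) on the log2 scale (limma adjusted p = 0.00783), and mouse 1 was again the lowest. Without mouse 1 the log2 fold change was 0.31 (limma adjusted p = 0.0318). Slc25a40 had 212, 192 and 223 counts in the mice, 161, 139.6 and 170.0 in the ssNM-Rs, and 196, 185 and 190.0 in the lsNM-Rs. Its log2 fold change of -0.27 ± 0.12 (SE) did not pass the test (limma adjusted p = 0.0543), and it passed when spleens were rescaled to the same total (-0.33, limma adjusted p = 0.0279). The log2 ratio of Slc25a39 to Slc25a40 was 0.76 higher in NM-Rs, with no overlap between species (exact permutation test, p = 0.0238, adjusted p = 0.0286).

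**Figure D2:**
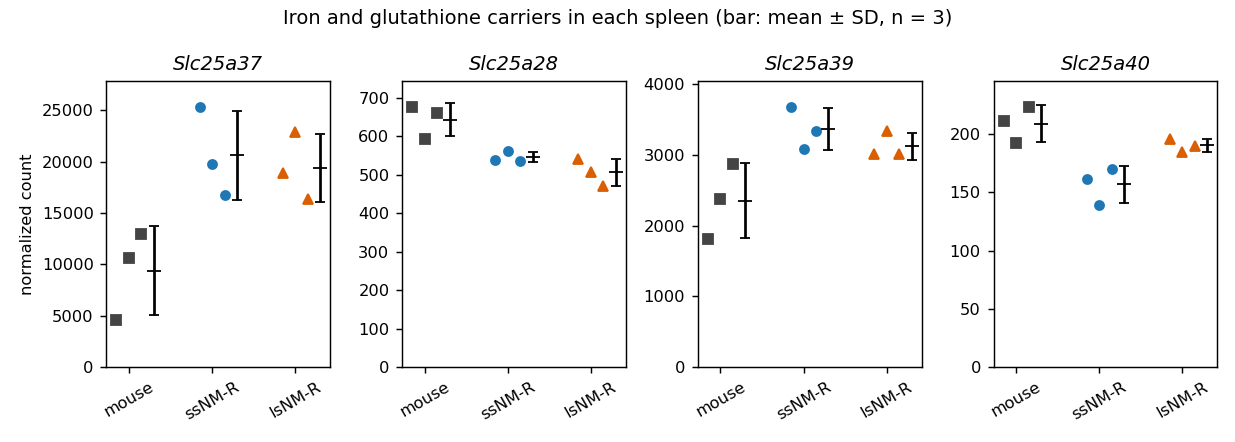
Normalized counts of both mitoferrins (Slc25a37, Slc25a28) and both glutathione carriers (Slc25a39, Slc25a40) in each spleen, on separate linear axes that start at 0. Points are spleens, and bars give the mean ± SD of each group (n = 3). Slc25a37 and Slc25a39 were higher in all 6 NM-R spleens than in any mouse, Slc25a28 was lower in all 6, and for Slc25a40 the lsNM-R spleen with 196 counts lay above the lowest mouse at 192.

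Over the whole family, 11 members (31.4%) were higher in NM-Rs than in mice and 18 (51.4%) were lower, and 6 did not pass the test. By the same test 39.7% of all genes were higher and 38.8% were lower. These shares also stand beside the counts of each class and list below. So many genes differed between the species that the 29 members called in either direction (82.9%) stood beside 78.5% of all genes, and the 27 members whose species did not overlap (77.1%) beside 72.6%. The median log2 fold change was -0.33 over the family and 0.01 over all genes. Of the 35 members, 8 (22.9%) were lower with a log2 fold change of -2 or less, beside 13.9% of all genes, and 2 (5.71%) were higher with one of at least 2, beside 14.4%.

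**Figure D3:**
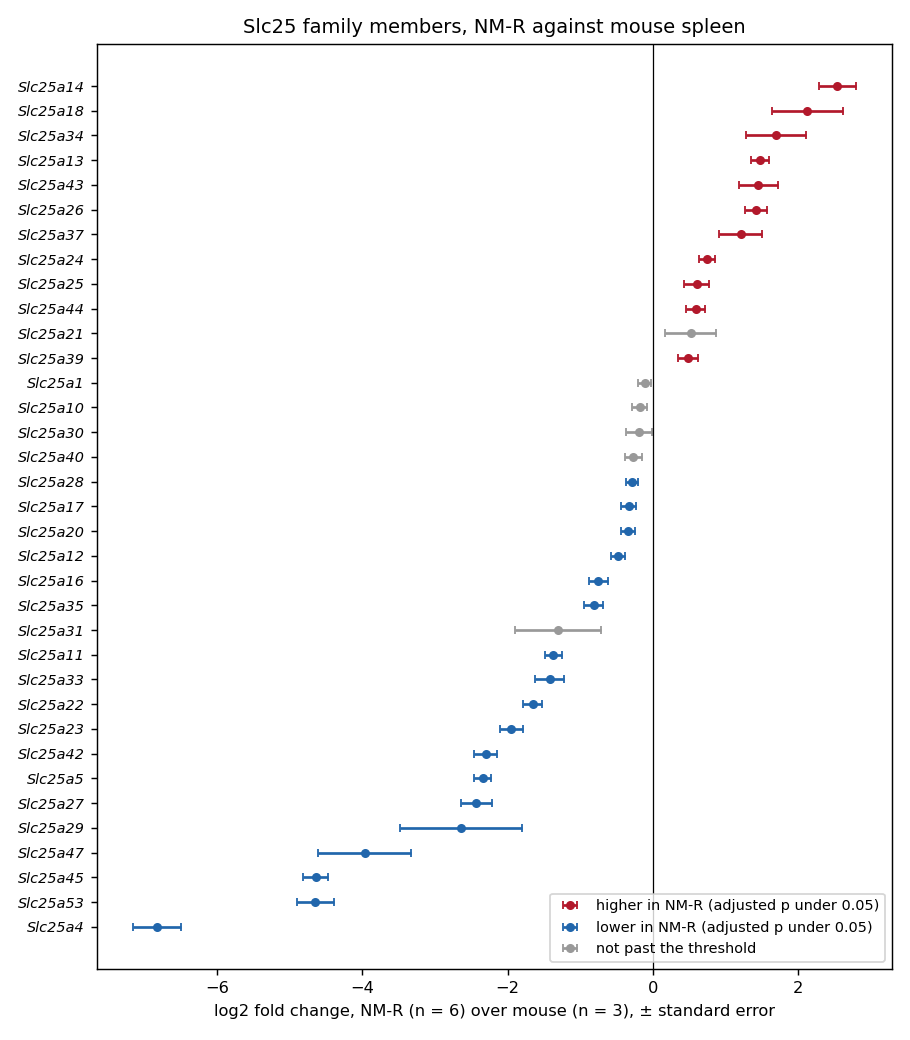
log2 fold change of each of the 35 members in NM-R spleens (n = 6) over mouse spleens (n = 3), with bars of ± 1 standard error, sorted from highest to lowest. Red marks the 11 members that were higher, blue the 18 that were lower (limma adjusted p under 0.05) and grey the 6 that did not pass. The values run from 2.54 for Slc25a14 to -6.82 for Slc25a4.

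The sum of all family counts was of like size in both species, from 22934 to 34103 in mice and from 28868 to 38460 in NM-Rs. What differed was its make-up. Slc25a37 gave 19.9%, 34.7% and 38.1% of the family's counts in the mice and between 56.6% and 65.9% in the NM-Rs. These sums and shares cover only the 35 rows with Slc25a symbols. Ucp2, a member of the same protein family under another symbol, was not in them. It had between 16253 and 23364 counts in the mice and between 11587 and 17546 in the NM-Rs. Without Slc25a37 the sum was 18376, 20002 and 21097 in the mice and between 12077 and 13128 in the NM-Rs, so the other 34 members together were lower in every NM-R spleen. A large part of this was the 3 adenine nucleotide carriers described below. They gave between 6216 and 7005 counts in mice and between 865 and 1159 in NM-Rs, so the lower sum is not a decrease of each member. The shares above are of reads and not of molecules, since longer transcripts give more reads. Per kilobase of exon, the highest mouse levels were those of Slc25a5 (3033), Slc25a37 (2258), Slc25a39 (855), Slc25a4 (700.2) and Slc25a11 (600.0). Gene lengths for the NM-R were not used here.

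The adenine nucleotide carriers exchange ADP for ATP across the inner membrane, and both abundant forms were lower in the NM-Rs. Slc25a4 (chr8:47292151-47296638, minus strand), the isoform of heart and muscle, had 1699.8, 1624 and 1619 normalized counts in the mice, 10.9, 13.5 and 24.6 in the ssNM-Rs, and 14.1, 6.35 and 18.2 in the lsNM-Rs. It had the lowest log2 fold change of the family (-6.82 ± 0.33 SE, limma adjusted p = 4.92e-08), and its mean was 113 times as high in mice. The summed level of 4 skeletal muscle markers was between 105 and 175 in mice and between 24.5 and 63.2 in NM-Rs. Of these 4 markers Mylpf and Tnnt3 were lower, Ckm was higher (log2 fold change 3.54) and Acta1 did not pass the test. Their counts were low, with 1 of the 4 at the floor in every mouse, and the part of these markers in Slc25a4 was not tested. Slc25a5 (chrX:34335646-34338802, plus strand), the isoform of dividing cells, had 4510.4, 5083 and 5385 counts in the mice, 986, 1144 and 937 in the ssNM-Rs, and 1133, 881 and 846 in the lsNM-Rs. It was 5.05 times as high in mice (log2 fold change -2.34 ± 0.12 SE, limma adjusted p = 5.99e-08).

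Slc25a31, the form of the testis, had at most 6 reads in any mouse and at most 2 in any NM-R, and no call was made. The summed count of these 3 carriers was between 6216 and 7005 in mice and between 865 and 1159 in NM-Rs, and each of the 3 had a lower mean in the NM-Rs. The log2 ratio of Slc25a4 to Slc25a5 differed by -4.48 between NM-Rs and mice, with no overlap (exact permutation test, p = 0.0238, adjusted p = 0.0286). Slc25a4, Slc25a5 and Slc25a31 are close in sequence, so reads may be assigned differently among them in the mouse and NM-R genomes, and the gene models of the NM-R for these carriers were not examined. Slc25a6, a further adenine nucleotide carrier that the NM-R annotation names and the mouse annotation does not, was not listed.

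The ATP-Mg and phosphate carriers of the same class, which adjust the adenine nucleotide content of the matrix in response to calcium, did not move one way. Slc25a24 had 396, 443 and 423 counts in the mice and between 616 and 882 in the NM-Rs, and was higher (log2 fold change 0.74 ± 0.12 SE, limma adjusted p = 0.000195). Slc25a25 had 447, 467 and 472 in the mice and between 483 and 1029 in the NM-Rs, and was higher as well (0.60 ± 0.18 SE, limma adjusted p = 0.0102). Slc25a23 had 413, 391 and 359.7 in the mice and between 75.2 and 139.8 in the NM-Rs, and was lower (-1.95 ± 0.16 SE, limma adjusted p = 1.57e-06). For each of these 3 genes the species did not overlap. The ratio of Slc25a24 to Slc25a25 was the only one of the 6 tested that did not differ past the threshold, with a mean log2 ratio of -0.14 in mice and 0.01 in NM-Rs (exact permutation test, p = 0.548, adjusted p = 0.548).

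Among 7 carriers of amino acids and acylcarnitine, 3 were higher and 4 lower. The aspartate and glutamate exchangers of the malate-aspartate shuttle went in opposite directions. Slc25a12 had 895, 841 and 881 counts in the mice and between 534 and 713 in the NM-Rs (log2 fold change -0.48 ± 0.10 SE, limma adjusted p = 0.00134), while Slc25a13, the form that dominates in liver, had 79.3, 79.4 and 89.1 in the mice and between 194 and 255 in the NM-Rs (1.47 ± 0.13 SE, limma adjusted p = 2.5e-06). The mean ratio of Slc25a12 to Slc25a13 went from 10.6 in mice to 2.71 in NM-Rs, a log2 difference of -1.95 with no overlap (exact permutation test, p = 0.0238, adjusted p = 0.0286). Slc25a12 remained the member of the pair with more reads in all 9 spleens.

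The glutamate carriers gave a similar picture at very unequal counts. Slc25a22 had 661, 697 and 760.3 in the mice and between 169 and 262 in the NM-Rs (log2 fold change -1.66 ± 0.13 SE, limma adjusted p = 1.39e-06). Slc25a18 had 4.01, 2.17 and 0 in the mice and between 6.32 and 16.2 in the NM-Rs (2.12 ± 0.49 SE, limma adjusted p = 0.00264), a difference between few reads that came to 1.14 with a pseudocount of 5 (limma adjusted p = 0.00136) and to 1.46 without mouse 3 (0.0072). The log2 ratio of Slc25a22 to Slc25a18 differed by -3.78 between NM-Rs and mice (exact permutation test, p = 0.0238, adjusted p = 0.0286). Slc25a44, which carries branched-chain amino acids, was higher, with 489, 684 and 703 counts in the mice and between 845 and 1108 in the NM-Rs (0.58 ± 0.13 SE, limma adjusted p = 0.00244). Slc25a20, the carnitine and acylcarnitine carrier that feeds fatty acids to oxidation, had 388, 485 and 441 in the mice and between 326 and 367 in the NM-Rs (-0.35 ± 0.10 SE, limma adjusted p = 0.00793), and it missed the threshold without mouse 2 (limma adjusted p = 0.0537).

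**Figure D4:**
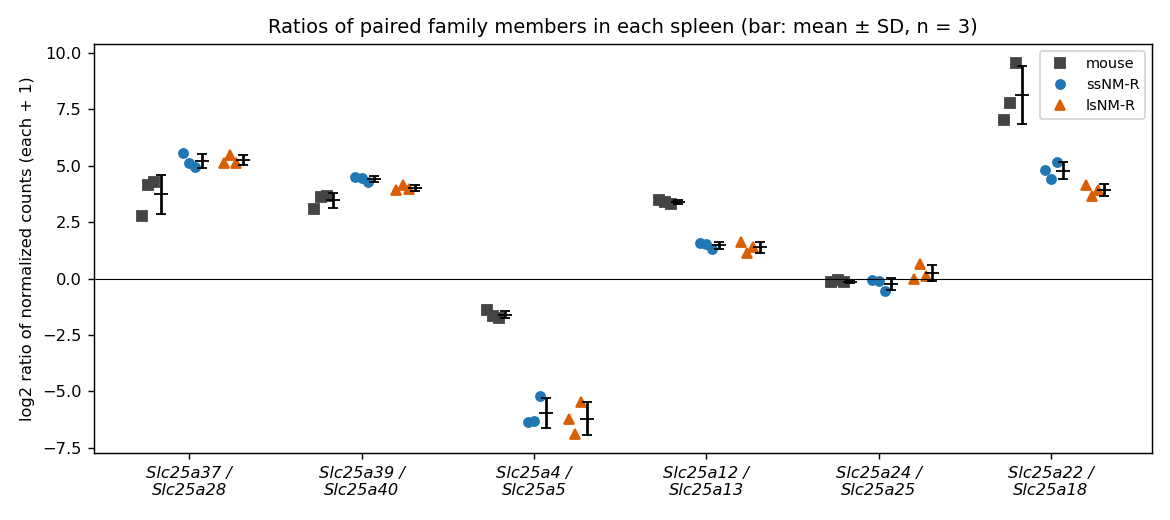
log2 ratio of the normalized counts (each + 1) of 6 pairs of members with the same or a related cargo, in each spleen. Squares are mice, circles ssNM-Rs and triangles lsNM-Rs, and bars give the mean ± SD of each group (n = 3). In 5 pairs all NM-R spleens lay on one side of all mice, and for Slc25a24 over Slc25a25 the groups overlapped.

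Slc25a29, a carrier of basic amino acids, was called lower with an overlap between species. It had 48.2, 67.4 and 59.8 counts in the mice, 4.10, 1.5 and 51.2 in the ssNM-Rs, and 11.3, 3.53 and 17.6 in the lsNM-Rs. The values of ssNM-R 6 and lsNM-R 5 stood above those of the other NM-Rs, and these are the spleens with the highest liver marker sums, 2615 and 819, against 83.4 to 320 in the other NM-Rs and 115 to 267 in the mice. Of the 4 listed liver markers none was at the floor in either species, and albumin (Alb) was at 2173 and 694 in ssNM-R 6 and lsNM-R 5 and at most 223 elsewhere. Alb carries most of these sums, and Fgb was likewise highest in these 2 spleens, whereas in lsNM-R 5 Apoa1 (44.5) and Ttr (19.4) lay within the range of the other NM-Rs. Slc25a47, a carrier found mainly in liver cells, also had its highest NM-R values in ssNM-R 6 (11 reads) and lsNM-R 5 (2 reads), with 0, 0 and 6.95 in the ssNM-Rs and 0, 0.705 and 1.25 in the lsNM-Rs, against 22.1, 29.3 and 29.4 in the mice. It was lower by the test (log2 fold change -3.97 ± 0.65 SE, limma adjusted p = 0.000257).

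With ssNM-R 6 and lsNM-R 5 left out, a choice made after seeing the data, the log2 fold change was -3.51 for Slc25a29 (limma adjusted p = 0.000134), against -2.65 with all spleens (limma adjusted p = 0.0149), and -4.60 for Slc25a47 (limma adjusted p = 7.62e-06). These were the spleens with the highest NM-R values of both genes, so leaving them out had to lower the fold changes. Without mouse 2 the log2 fold change of Slc25a29 was -2.54 and missed the threshold (limma adjusted p = 0.0523). The part of liver RNA in the values of ssNM-R 6 and lsNM-R 5 was not tested.

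**Figure D5:**
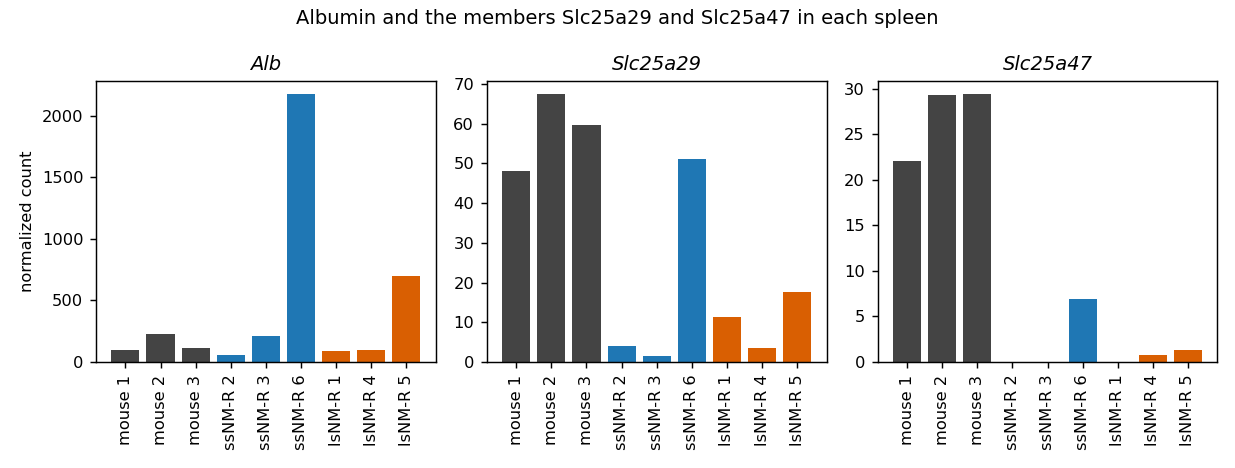
Normalized counts of albumin (Alb) and of the members Slc25a29 and Slc25a47 in each of the 9 spleens, as bars from 0 on separate linear axes. Mouse spleens are grey, ssNM-R blue and lsNM-R orange. All 3 genes were highest among the NM-Rs in ssNM-R 6 (2173, 51.2 and 6.95) and next highest in lsNM-R 5 (694, 17.6 and 1.25). For Slc25a47 the second place rests on 2 reads, against 1 read in lsNM-R 4. The libraries of ssNM-R 6 and lsNM-R 5 were also the deepest, with 18219644 and 18387599 reads.

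Of the cofactor and nucleotide carriers, 4 of the 5 listed were lower. Slc25a42, which carries coenzyme A, had 294, 333 and 409 counts in the mice and between 58.6 and 78.4 in the NM-Rs (log2 fold change -2.30 ± 0.16 SE, limma adjusted p = 5.64e-07). Slc25a33, which carries pyrimidine nucleotides for mitochondrial nucleic acid synthesis, had 97.3, 122 and 117 in the mice and between 30.3 and 60.0 in the NM-Rs (-1.42 ± 0.20 SE). Slc25a16 had 387, 395 and 359 in the mice and between 196 and 280.3 in the NM-Rs (-0.75 ± 0.13 SE). The peroxisomal Slc25a17 was lower by 0.33 on the log2 scale (limma adjusted p = 0.0141), and this call was lost with the same upper quartile (-0.24, limma adjusted p = 0.0529) and without mouse 3 (-0.30, limma adjusted p = 0.0549). The exception of the class was Slc25a26, which brings the methyl donor S-adenosylmethionine into the matrix. It had 145, 133 and 96.5 counts in the mice, 387, 306 and 349 in the ssNM-Rs, and 289.5, 350.5 and 302 in the lsNM-Rs (1.41 ± 0.15 SE, limma adjusted p = 1.36e-05).

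Of 4 carriers of di- and tricarboxylates, 1 passed the threshold. Slc25a11, the oxoglutarate and malate exchanger, had 1234, 1242 and 1339 counts in the mice and between 416 and 598 in the NM-Rs (log2 fold change -1.37 ± 0.12 SE, limma adjusted p = 2.43e-06). The citrate carrier Slc25a1 had 594, 664 and 677 in the mice and between 519 and 685 in the NM-Rs, with a log2 fold change of -0.11 ± 0.09 (SE, limma adjusted p = 0.265). The dicarboxylate carrier Slc25a10 had 403, 422 and 453 in the mice and between 324 and 481 in the NM-Rs (-0.18 ± 0.10 SE, limma adjusted p = 0.131), and it passed without ssNM-R 2 (-0.23, limma adjusted p = 0.0462). Slc25a21, which carries oxodicarboxylates, had 72.2, 183 and 243 in the mice and between 181 and 357 in the NM-Rs (limma adjusted p = 0.194). Mouse 1 was at 0.339 times the mean of the other mice for Slc25a21 and at 0.386 times for Slc25a37, the lowest quotients of the family, and it had the lowest erythroid marker sum as well.

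The relatives of the uncoupling proteins split. Slc25a14 had the highest log2 fold change of the family (2.54 ± 0.26 SE, limma adjusted p = 8.84e-06), with 58.2, 79.4 and 76.6 counts in the mice, 535, 285 and 374 in the ssNM-Rs, and 294, 619.8 and 494 in the lsNM-Rs. Slc25a27, known from the brain, went from 95.3, 89.1 and 89.1 in the mice to between 11.4 and 21.9 in the NM-Rs (-2.43 ± 0.22 SE, limma adjusted p = 3.2e-06). Slc25a30 had 254, 229 and 223 in the mice and between 144 and 277 in the NM-Rs, and did not pass the test (-0.19 ± 0.18 SE, limma adjusted p = 0.329).

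Of 6 less characterised members, 4 were lower and 2 higher. Slc25a45 had 793, 769.6 and 769 counts in the mice, 26.0, 31.5 and 20.9 in the ssNM-Rs, and 35.3, 31.0 and 40.1 in the lsNM-Rs, a level 25.2 times as high in mice (log2 fold change -4.64 ± 0.17 SE, limma adjusted p = 8.53e-09). Slc25a53 had 436, 503 and 509.7 in the mice and between 10.1 and 24.5 in the NM-Rs (-4.65 ± 0.25 SE, limma adjusted p = 1.11e-07). In both genes every NM-R spleen was far below every mouse. Slc25a35 was lower by less (-0.82 ± 0.13 SE). Slc25a43 had 29.1, 20.7 and 15.7 in the mice and between 35.4 and 86.7 in the NM-Rs (1.45 ± 0.27 SE, limma adjusted p = 0.000628). Slc25a34 had 3.01, 7.61 and 3.15 in the mice and between 7.06 and 24.0 in the NM-Rs, an overlap at few reads, and was called higher (1.70 ± 0.41 SE, limma adjusted p = 0.00346).

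The cohorts compared with mice one at a time gave like counts, and both comparisons share the same 3 mice. In ssNM-Rs 11 members were higher (38.0% of all genes were) and 18 lower (37.5%), and in lsNM-Rs 10 were higher (38.1%) and 19 lower (37.0%). The members called against mice in 1 cohort and not in the other were Slc25a28, with log2 fold changes of -0.24 in ssNM-Rs and -0.34 in lsNM-Rs, Slc25a40 (-0.41 and -0.13), Slc25a25 (0.77 and 0.43) and Slc25a10 (-0.03 and -0.33). These calls lay near the threshold. Slc25a28 in ssNM-Rs stayed on its side of the threshold in 15 of 21 alternatives and passed without mouse 2 (limma adjusted p = 0.0437) or lsNM-R 1 (0.0457). Slc25a10 in lsNM-Rs stayed past it in 14 of 21 and missed it without mouse 2, mouse 3, lsNM-R 4 or lsNM-R 5 (limma adjusted p = 0.0573 to 0.0863). Slc25a40 in ssNM-Rs stayed past it in 17 of 21 and missed it without mouse 3 (limma adjusted p = 0.0592) or ssNM-R 3 (0.0693), and Slc25a25 in lsNM-Rs stayed on its side in 17 of 21 and passed without ssNM-R 6 (limma adjusted p = 0.0399) or lsNM-R 4 (0.0209). The difference between the cohorts themselves did not pass the test for any of these 4. Some calls made in both cohorts were no firmer. Against mice in lsNM-Rs, Slc25a17 kept its call in 10 of 21 alternatives, Slc25a20 and Slc25a39 in 14, Slc25a29 in 15 and Slc25a34 in 16. Slc25a17 and Slc25a29 kept theirs in 14 of 21 in ssNM-Rs, where Slc25a29 missed the threshold with edgeR (adjusted p = 0.142) and DESeq2 (adjusted p = 0.112).

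Between lsNM-Rs and ssNM-Rs, 0 of the 35 members passed the limma test, and 0 by edgeR or DESeq2 on the recovered reads. Of all 12946 genes 0.00% passed in limma, and the shares of all genes by edgeR and DESeq2 are not given here. The authors, testing with DESeq2, reported a small set of genes that differed between these cohorts. At an unadjusted p under 0.05 there were 2 members (5.71%), beside 8.79% of all genes, and 4 members did not overlap between the cohorts (11.4%), beside 13.1%. Slc25a10 had the smallest p, with 481, 386 and 389 counts in the ssNM-Rs and 352, 338 and 324 in the lsNM-Rs (log2 difference -0.30 ± 0.12 SE, limma adjusted p = 0.534). Slc25a45 came next with a difference of 0.44 ± 0.19 (SE, limma adjusted p = 0.567), and Slc25a53 had 0.63 ± 0.29 (SE, limma adjusted p = 0.579). Slc25a40 was higher in every lsNM-R than in any ssNM-R (0.28 ± 0.14 SE, limma adjusted p = 0.59), and Slc25a1, Slc25a10 and Slc25a21 were lower in every lsNM-R. Slc25a37, the most abundant, differed by -0.08 ± 0.35 (SE, limma adjusted p = 0.974). The spleens of a cohort differed in depth, and a term for the depth set also gave 0 members.

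Members of the same protein family that carry other symbols, and other genes of mitochondrial transport, were read from lists set beside the family. Ucp2, the uncoupling protein of blood cells, had 16253, 19118 and 23364 counts in the mice and between 11587 and 17546 in the NM-Rs, and was lower (log2 fold change -0.52, limma adjusted p = 0.015). Ucp3 was lower at low counts (-2.19, limma adjusted p = 0.00326), Ucp1, the uncoupling protein of brown fat, had at most 4.01 counts in any mouse and 3.16 in any NM-R, Mtch1 was higher (0.54) and Mtch2 lower (-0.38). Of the listed pyruvate and calcium import genes, 4 of 6 were higher and 1 was lower. The subunits of the pyruvate carrier were unequal, with Mpc2 higher by 1.62 and Mpc1 lower by 0.34 on the log2 scale (limma adjusted p = 1.3e-06 and 0.00659). Letm1, a cation exchanger of the inner membrane, was higher by 1.39.

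The TIM22 complex inserts carrier proteins into the inner membrane, and 2 of its 5 listed genes were lower and 2 higher. Timm29 went from 694, 772 and 824 counts in the mice to between 92.8 and 114 in the NM-Rs, a log2 fold change of -2.86 (limma adjusted p = 1.95e-08), and the channel Timm22 was lower (-1.12), while the chaperones Timm9 and Timm10 were higher by 0.49 and 0.98. Of 3 sideroflexins, a separate family of mitochondrial carriers, 2 were higher, with Sfxn5 at 1.65. The outer membrane channels Vdac1, Vdac2 and Vdac3 were not listed. Of 5 genes taken for general mitochondrial content, Tomm40 was higher (1.02), Cox4i1 (-0.29) and Sdha (-0.37) were lower, and Tomm22 and Tfam did not pass the test.

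The haem and iron-sulfur partners of the mitoferrins were higher for 5 of 9 and lower for 1, beside 39.7% and 38.8% of all genes. Alas2, the first enzyme of erythroid haem synthesis, had between 11191 and 19388 counts in the mice and between 28187 and 45862 in the NM-Rs, with a log2 fold change of 1.21 (limma adjusted p = 0.000482). Fech, the ferrochelatase, was higher by 0.74 (limma adjusted p = 0.0121) and Cpox by 1.66. The species overlapped for Fech, where lsNM-R 5 was at 7431 counts and mouse 3 at 7716. Mouse 1 was the lowest mouse for both genes. It had 3468 counts of Fech, against 5709 and 7716 in the other mice, and 856 of Cpox, against 2572 and 3137. Abcb10, which stabilises mitoferrin-1, had a log2 fold change of 0.65 that did not pass the test (limma adjusted p = 0.108). Nfs1, the desulfurase of iron-sulfur cluster assembly, was the member that was lower (-0.38).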

How the data were processed

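Spleen RNA of 3 mice, 3 ssNM-Rs and 3 lsNM-Rs was analysed, grouped by the labels for organism and spleen size. Reads of 100 bp in pairs were aligned by the authors with STAR 2.5.3a (mouse reads to mm9, NM-R reads to their own genome), counted per gene with HTSeq 0.10.0 and divided by DESeq2 size factors. The deposited signal values are thus size-factor-normalized read counts. The labels and the methods name different sequencers, library kits (mRNA or total RNA) and kit makers, and whether counting used strand is not stated, so genes that overlap are uncertain.

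Division by the smallest step of a library turned 100% of its values into whole reads (tolerance 0.01 reads). On the scale log2(normalized count + 1), a mean for each of the 3 groups was fitted to the 9 spleens with limma 3.58.1 (R 4.3.3), a trended empirical Bayes variance and 2-sided tests. Benjamini-Hochberg adjustment covered all 12946 genes, with a threshold of 0.05. Fold changes are on this log2 scale, which understates the change of low genes. Ratios of members with a related cargo were compared by an exact permutation test of 3 against 6 spleens. The limma, edgeR and DESeq2 fits were tested on simulated data in which far fewer genes differed than were called here.

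The alternatives were pseudocounts of 0.5 and 5, a mean of at least 10 normalized counts, 3 other scalings, no variance trend, only the compared groups, DESeq2 1.42.0 and edgeR 4.0.16 (TMM) run on these reads, a replicate block, a depth term for the cohorts, and each spleen left out in turn. A fit without both ssNM-R 6 and lsNM-R 5 was added after the data were seen, and the numbers of alternatives include it. The members, lists, pairs and tests were chosen with earlier results of these data known. Values per spleen were printed for both mitoferrins and glutathione carriers, the 2 members with the highest mean in each class, the 5 highest and 5 lowest log2 fold changes, the 3 smallest p between cohorts and the members of pairs. Those of the other members were added so that each class is described whole. Mouse positions and exon lengths are those of GENCODE M1 (mm9), and NM-R gene names those of RefSeq. NM-R gene models and protein sequences were not used here. Some genes and sequences are not reported here.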

Additional observations from a re-analysis of the deposited data

Results flagged for a closer look

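In 3 of 34 members tested over the 6 NM-R spleens, 1 spleen stood apart from the rest by Dixon's criterion at the 95% level. By chance this criterion marks about 1 in 20 groups of normally distributed values. It was applied to normalized counts without a log scale. The rate need not hold for skewed values such as those of Slc25a29 and Slc25a47. Slc25a21 was at 357 normalized counts in ssNM-R 2, against 181 to 224 in the other NM-Rs. The erythroid marker sum was highest in ssNM-R 2 as well (211806), but lsNM-R 4, the next at 201061, had only 184 counts of Slc25a21. Slc25a29 was at 51.2 in ssNM-R 6, against 1.5 to 17.6 in the others. Slc25a47 was at 6.95 in ssNM-R 6, against 0 to 1.25 in the others. ssNM-R 6 had the highest liver marker sum, and the part of liver RNA in these values was not tested.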

How the results depend on the processing

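The counts of members called stayed within 1.5 times the reported ones in all 168 alternative counts, and those between the cohorts were 0 throughout. The 72 alternative values of the pair ratios kept their direction and, where a test was possible, their side of the threshold. For pairs whose species did not overlap, leaving out a spleen keeps the separation, so the direction could not change. Without an NM-R their tests could not miss the threshold either. With each spleen left out in turn, NM-Rs against mice gave 11 members higher in every case and 15 to 20 lower, ssNM-Rs 10 to 12 higher and 16 to 19 lower, lsNM-Rs 8 to 11 higher and 15 to 19 lower, and the cohorts against each other 0. Under the other alternatives the counts for NM-Rs against mice were 10 to 11 higher and 16 to 20 lower. For single members over the 4 comparisons, 2831 alternative values kept their call, 72 lost it, 25 gained it and 0 reversed. The members of NM-Rs against mice that did so were Slc25a10, Slc25a17, Slc25a20, Slc25a28, Slc25a29 and Slc25a40, with values in the report, and Slc25a31, at few reads, which passed in 4 alternatives. Slc25a17 also missed the threshold without mouse 2 (-0.33, limma adjusted p = 0.05) and under quantile normalization (-0.24, limma adjusted p = 0.0522). Slc25a10 also passed with the same total (-0.24, limma adjusted p = 0.0401), and Slc25a40 without a variance trend (-0.27, limma adjusted p = 0.0329) and without ssNM-R 6 (-0.30, limma adjusted p = 0.0407). The causes were not tested. Leaving out 1 mouse leaves 28 arrangements and a smallest exact p of 0.0714, so the pair ratios could not pass there, and their log2 differences over all spleens left out ranged from 1.00 to 1.78 for Slc25a37 over Slc25a28, from 0.57 to 0.86 for Slc25a39 over Slc25a40, from -4.66 to -4.32 for Slc25a4 over Slc25a5, from -2.0 to -1.89 for Slc25a12 over Slc25a13, from 0.02 to 0.25 for Slc25a24 over Slc25a25, and from -4.32 to -3.06 for Slc25a22 over Slc25a18. Rescaling to the same upper quartile moved the midpoint of the table, the middle log2 fold change over every gene, to 0.10 from 0.01. The replicate numbers in the labels do not pair the spleens (correlations of same-numbered spleens from -0.0045 to 0.0101), and with them as a replicate block 11 members were higher and 18 lower in NM-Rs, 11 and 18 in ssNM-Rs, 10 and 19 in lsNM-Rs, and 0 between the cohorts. In the shallowest library 1 read is a normalized count of 1.5, so differences of Slc25a18, Slc25a31, Slc25a34 and Slc25a47 rest on few reads.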

Other observations

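The spread of the family among the 6 NM-R spleens was close to that of other genes. Over the 23 members whose NM-R mean reached 100 normalized counts, the coefficient of variation had a median of 13.0% and ran from 4.06% to 31.7%, beside a median of 13.7% over the 8745 genes of the table with such a mean. The lowest of these values was that of the carnitine and acylcarnitine carrier Slc25a20, with a mean of 343 ± 13.9 (SD, n = 6), and the highest was that of Slc25a21, with 219 ± 69.4 (SD, n = 6).

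Slc25a39, set against the erythroid marker sum, was at 0.126 in mouse 1, at 0.0552 and 0.0522 in the other mice, and between 0.0166 and 0.0238 in the NM-Rs. The quotient of Slc25a39 was thus lower in every NM-R than in any mouse, as that of Slc25a37 was, and its highest value was in the mouse with the lowest marker sum.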
